A study of Mus musculus with 12 samples.

Results

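The Hox genes of the mouse encode homeodomain transcription factors that set positional identity along the body axis and in the limbs. They lie in 4 clusters, HoxA on chromosome 6, HoxB on chromosome 11, HoxC on chromosome 15 and HoxD on chromosome 2. Genes at the same relative position in different clusters are paralogs and carry the same number, and low numbers are expressed toward the head and high numbers toward the tail. Hox proteins bind DNA together with TALE homeodomain partners of the PBX and MEIS families. In adult tissues the clusters are held silent or active by Polycomb and Trithorax complexes, and changed Hox expression is a known feature of leukemias and carcinomas. The gene copy number of these clusters was examined here in a pair of pancreatic ductal adenocarcinoma (PDAC) lines.

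All gene names made of Hox, a cluster letter from a to d and a number were taken from the copy-number segments of both lines. This gave 39 genes of 22036 gene names in each line, the same 39 in both. HoxA had 11 of them, HoxB 10, HoxC 9 and HoxD 9, and each name lay on the chromosome of its cluster. The rule used the spelling of the names and no measured value of single genes.

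The DNA came from the primary mouse PDAC lines 15376T and 14837T, isolated from C57BL/6 mice whose engineered alleles included ROSA_rtTA, p48-Cre (Cre driven from the pancreatic Ptf1a locus) and Trp53 L/+. Both lines shared these alleles, and both were cultured in DMEM with 10% FBS, with doxycycline in the medium as the methods describe. The labels call the genotype of both libraries WT, do not list the engineered alleles, and give no passage or age. Each line was sequenced as 1 whole-exome library, named WES-15376T and WES-14837T, so no value has a replicate, the lines could not be tested against each other, and p-values are absent. DNA copy number holds no cell type marker, so the PDAC label could not be checked in these libraries.

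The genome was divided into bins, and the authors joined neighboring bins into segments with a single log2 ratio of coverage against a copy-number reference that is not given in the sources used here. For a pure population with 2 copies in the reference, 1 copy would give a log2 of -1 and 3 copies a log2 of 0.58. The integer copy numbers matched limits of -0.25 for a loss and 0.2 for a gain in all 183 autosomal segments of WES-15376T and all 224 of WES-14837T. Mean autosomal read depth was 43.4 and 47.5. The only spread that the tables offered was that of log2 over the 2-copy autosomal segments, with an SD of 0.090 for 103 segments of WES-15376T and 0.095 for 96 segments of WES-14837T. Since those segments were selected by the call limits, this SD understates the full spread. It is given beside each cluster as a scale and not as an error of the cluster.

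In WES-15376T, 3 Hox genes were called lost, 0 gained and 36 at 2 copies. The lost genes were Hoxd13, Hoxd12 and Hoxd11, the 5′ end of HoxD. In WES-14837T, 9 Hox genes were called gained, 0 lost and 30 at 2 copies, and the gained genes were the whole HoxC cluster. Among all autosomal gene names of WES-15376T, 9.14% were called gained and 30.0% lost. The Hox genes had 0 gained, and 3 of 39 (7.69%) lost. In WES-14837T the same shares over all autosomal names were 21.5% gained and 28.8% lost, against 9 of 39 (23.1%) gained and 0 lost among Hox genes. Between the lines, 12 of 39 Hox genes (30.8%) had different calls, close to the 29.3% of all autosomal names, and 27 Hox genes had 2 copies in both. The genes of a cluster mostly share a segment and hence a single value, so these counts reflect few segments and not 39 separate measurements.

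**Figure D1:**
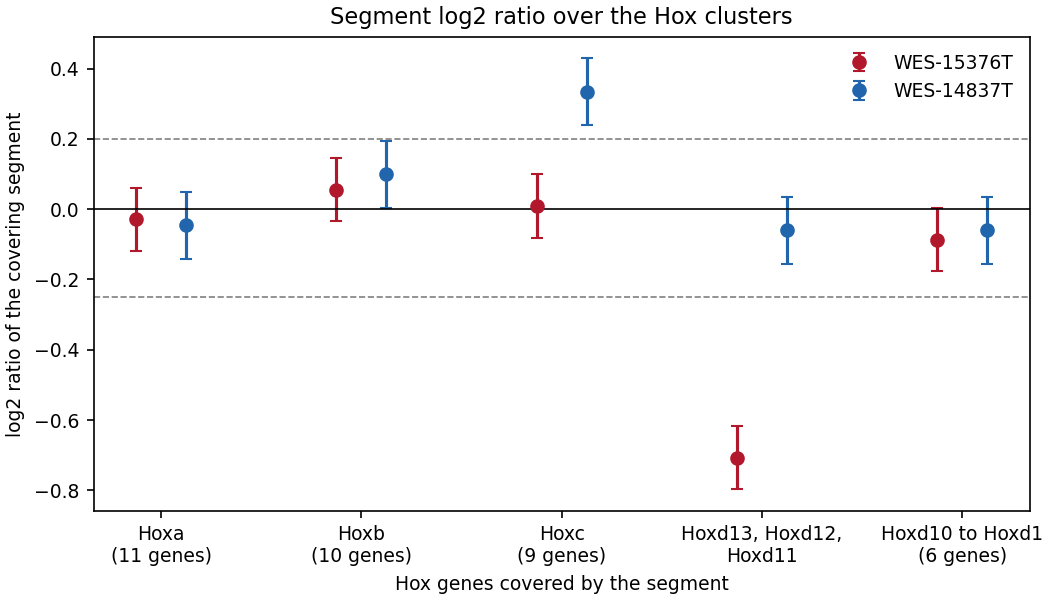
Segment log2 ratio (vertical axis) over the Hox clusters, with the HoxD genes given as 2 sets (horizontal axis), in WES-15376T (red) and WES-14837T (blue). Bars show 1 SD of log2 among the 2-copy autosomal segments of the same library, and dashed lines mark the call limits of -0.25 and 0.2. HoxC lay above the upper limit in WES-14837T at 0.33, and Hoxd13, Hoxd12 and Hoxd11 lay below the lower limit in WES-15376T at -0.71.

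The HoxD cluster extended over 96.9 kb, chr2:74668225-74765142 in the RefSeq annotation of GRCm38, with Hoxd13 first and Hoxd1 last. Hoxd13 and Hoxd12 act in the digits, Hoxd11 acts with Hoxa11 in the forelimb and kidney, and Hoxd10 to Hoxd1 act in the proximal limb, spinal cord and hindbrain. In WES-15376T a segment border lay within this cluster, between Hoxd11 and Hoxd10. The log2 was -0.71 for Hoxd13, Hoxd12 and Hoxd11, called at 1 copy. On the other side of the border, Hoxd10, Hoxd9, Hoxd8, Hoxd4, Hoxd3 and Hoxd1 had a log2 of -0.087 and 2 copies. In WES-14837T all 9 genes shared a segment with a log2 of -0.060 and 2 copies. The low side of the border lay at -7.87 SDs of the 2-copy segments, while the other values of HoxD were within 1 SD of 0.

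The segment with the lost genes was chr2:74530451-74684199, a stretch of 154 kb with 20 bins and 5 gene names. Besides the Hox genes it held Evx2, the even-skipped homeobox gene at the 5′ end of HoxD, and a portion of Lnpk, which encodes an endoplasmic reticulum junction protein. Its BAF, the fraction of reads with the alternative allele at variant sites, was 0.167, and its mean depth was 27.0. On its left lay a 2-copy segment of 2146 bins with a log2 of -0.055. The left border fell within Lnpk (chr2:74514836-74579458), in the 615 bases from 74529836 to 74530450, so Lnpk appeared in 2 segments of this library. On its right lay chr2:74691932-77880882, 3.19 Mb with 551 bins, 30 names, a BAF of 0.063 and a mean depth of 55.1. The covering segment of WES-14837T was chr2:3118514-77880882, 74.8 Mb with 7575 bins, a BAF of 0.19 and a mean depth of 48.1. Both lines shared its right end, 3.12 Mb beyond Hoxd1. By read depth alone, set against the 2-copy depth of WES-15376T, the lost segment had a log2 of -0.77 and the Hoxd10 to Hoxd1 segment a log2 of 0.26, so the sign of the latter depended on the measure.

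**Figure D2:**
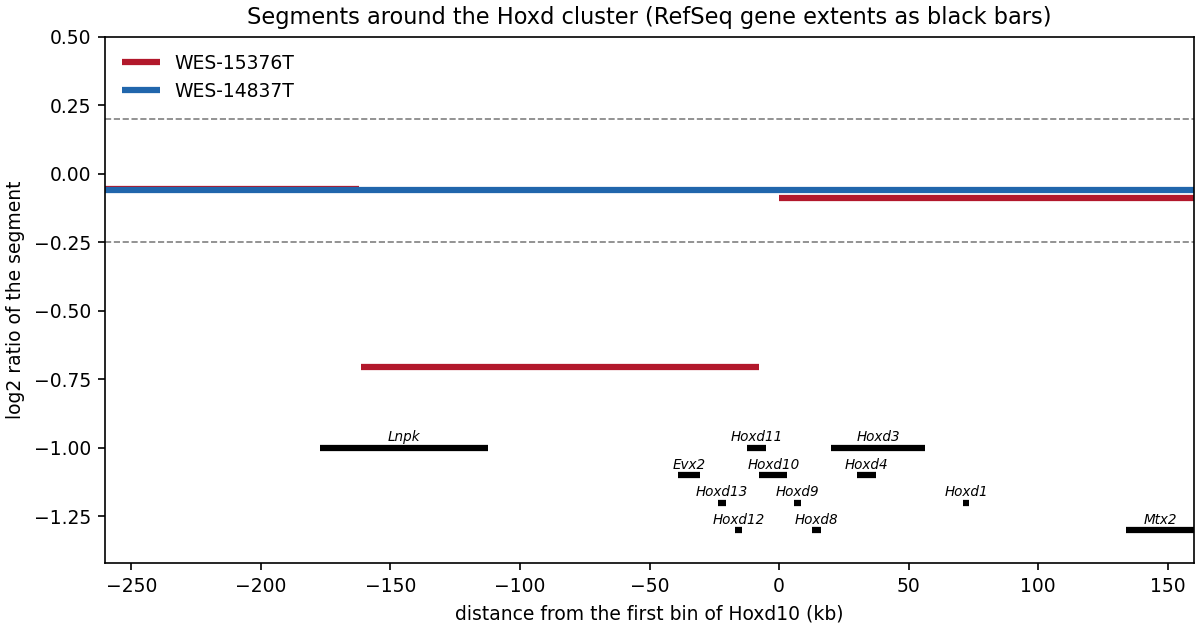
Segment log2 ratio (vertical axis) by distance in kb from the first bin after the HoxD border, which lies in Hoxd10 (horizontal axis), in WES-15376T (red) and WES-14837T (blue). Black bars are RefSeq gene extents on arbitrary rows without a log2 value, and dashed lines are the call limits of -0.25 and 0.2. The red line stepped down to -0.71 within Lnpk and back to -0.087 at Hoxd10, whereas the blue line ran at -0.060 throughout.

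The right border could be placed only to the 7732 bases from 74684200 to 74691931, where no bin was present. The RefSeq extents of Hoxd11 (chr2:74679558-74687016) and Hoxd10 (chr2:74684273-74695106) overlapped by 2744 bases within that stretch. The 2 bins listed for Hoxd11 ended at 74684199, before the overlap. To show DNA near the border, the 250 bases before a start of each gene are printed, from RefSeq on GRCm38.p6, plus strand. Where in the stretch the border lies is unknown, so these windows do not show its sequence. The Hoxd11 window, chr2:74682073-74682322, is upstream of its inner start and within the lost segment. The Hoxd10 window, chr2:74691641-74691890, lies in the stretch without bins just before the 2-copy segment. Capitals mark the single match to TGATTNAT, the joint HOX and PBX motif, searched on both strands and found here on the minus strand.
Hoxd11: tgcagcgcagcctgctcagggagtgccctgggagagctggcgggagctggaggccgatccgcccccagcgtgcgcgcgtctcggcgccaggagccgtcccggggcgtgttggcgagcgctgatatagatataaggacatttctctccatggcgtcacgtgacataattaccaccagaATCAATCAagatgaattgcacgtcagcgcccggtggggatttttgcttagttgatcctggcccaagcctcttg
Hoxd10: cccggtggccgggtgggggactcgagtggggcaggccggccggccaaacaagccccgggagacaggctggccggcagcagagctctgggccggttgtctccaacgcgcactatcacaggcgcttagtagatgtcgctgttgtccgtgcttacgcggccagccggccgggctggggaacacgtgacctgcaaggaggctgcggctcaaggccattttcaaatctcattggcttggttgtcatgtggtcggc

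The GC content was 60.4% in the Hoxd11 window and 65.6% in the Hoxd10 window, with 20 CpG sites in each. The table held such windows for 22 of the 39 Hox genes, 24 windows in all. Their median GC content was 58.6% (40.4% to 80.0%), compared with 52.4% over all 32851 windows. TGATTNAT was present in 2 of the 24 Hox windows (8.33%), those of Hoxd11 and Hoxa2, and in 2.82% of all windows. TATAAA, searched in the same way, was present in 4 Hox windows (16.7%) and in 12.4% of all windows. These matches describe the letters only, and GC content is given because capture yield can vary with it. The other Hoxd11 window had a GC content of 44.8% with 2 CpG sites. The Hoxd12 window had 55.6% and the Hoxd13 window 74.4%. The windows of these genes lie outside their listed bins, so this is not the GC content of the captured bins. Whether GC content had a part in the low coverage at Hoxd11 was not tested.

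The gene table of WES-15376T lists a gene's own mean read depth, which differs between exons because capture does, so it is set beside the 46.0 over 2-copy segments only as a description. Hoxd13 had a depth of 38.4, or 83.3% of the 2-copy depth. Hoxd12 had a depth of 25.7, or 55.9%. Hoxd11 had a depth of 16.5, or 35.8%. The depth thus fell from Hoxd13 to Hoxd11 by 2.32 times although all 3 genes carried the same log2 of -0.71. Each of these genes rested on 2 bins. In the same segment Evx2 had a depth of 15.7 over 3 bins, or 34.2% of the 2-copy depth, and Lnpk a depth of 37.5 over 9 bins, or 81.4%. The low depths were therefore at Evx2 and Hoxd11, with Hoxd13 between them near the level of Lnpk. These 5 genes held 18 of the 20 bins, and the Hox genes 6 of them.

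**Figure D3:**
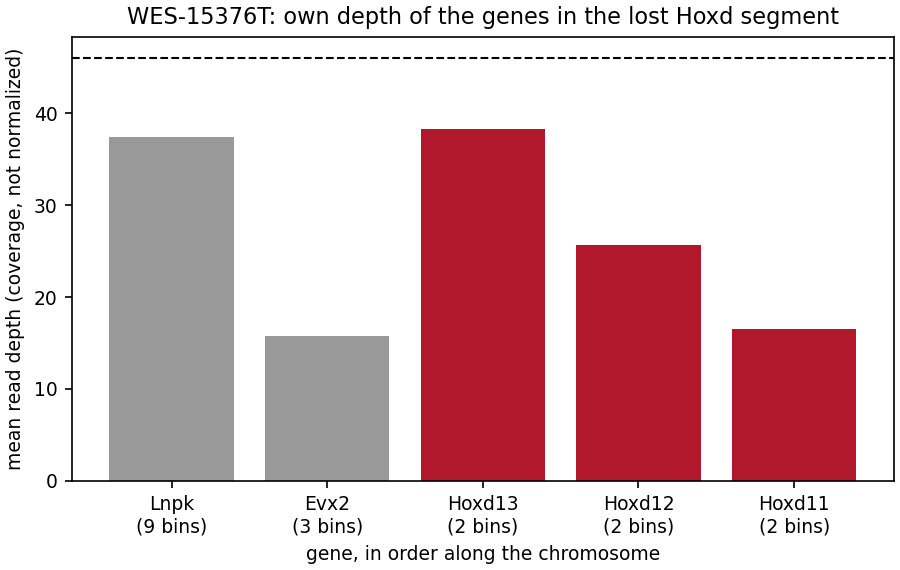
Mean read depth without normalization (vertical axis) of each gene listed for the lost HoxD segment in WES-15376T, in chromosomal order with its number of bins (horizontal axis); Hox genes are red and neighbors gray. The dashed line is the bin-weighted depth of 2-copy autosomal segments, 46.0, and the bars ranged from 15.7 at Evx2 to 38.4 at Hoxd13, all below the line.

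The mean depth of the 3 Hox genes, 26.9, gave a log2 of -0.48 against the median of the listed non-Hox genes within 5 Mb (37.5 over Lnpk, Evx2 and Cwc22), and a log2 of 0.014 against Lnpk and Evx2 alone, those within 2 Mb. The table lists only genes past an absolute log2 of 0.40, so none of these neighbors was at 2 copies. Lnpk and Evx2 lay in the lost segment itself, and Cwc22 in a segment called at 31 copies with a log2 of 3.91. These values hence do not compare the Hox genes with neighbors at 2 copies. No Hox gene was listed for WES-14837T, since its table begins at an absolute log2 of 0.40, so own depths could not be compared between the lines.

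Of the 42 lost autosomal segments of WES-15376T, 3 had a lower log2 than this one and 0 had fewer bins. The median log2 of lost segments was -0.53. Segments of fewer than 50 bins numbered 3 of 224 autosomal segments (1 lost) in WES-14837T. They were more frequent in WES-15376T, at 15 of 183 (4 lost). Among the 11 segments of this library called at 2 copies with fewer than 100 bins, the SD of log2 was 0.12, somewhat above the 0.090 of all 2-copy segments. In WES-14837T a change limited to the same 20 bins would be averaged over 7575 bins of its segment, unless the segmentation had separated it, so a small loss there cannot be told apart from 2 copies. The log2 of WES-15376T minus that of WES-14837T was -0.65 at Hoxd13 to Hoxd11, and 98.0% of 2392 autosomal windows of 1 Mb had a smaller absolute difference between the lines. This share sets a segment of 154 kb against means over 1 Mb, in which a change of that length would be diluted. It therefore overstates how unusual the difference was. For Hoxd10 to Hoxd1 the difference was -0.028, with 17.1% of windows smaller.

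The HoxC cluster extended over 116 kb, chr15:102921131-103036856, from Hoxc13 to Hoxc4. Hoxc13 acts in hair and nail, Hoxc12, Hoxc11 and Hoxc10 in the lumbosacral region, and Hoxc9, Hoxc8, Hoxc6, Hoxc5 and Hoxc4 in the thoracic and cervical region. All 9 genes had a log2 of 0.33 in WES-14837T, called at 3 copies. In WES-15376T they had a log2 of 0.0092 and 2 copies. The value of WES-14837T was 3.50 SDs of its 2-copy segments above 0, and that of WES-15376T within 1 SD. It lay below the 0.58 of 3 copies in a pure population, and below the 0.40 from which genes are listed, so no HoxC gene has an own depth in the tables. With an absolute log2 of 0.5 as the limit for a call, 0 HoxC genes would be gained.

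In WES-14837T the gained segment was chr15:94394573-103943185, 9.55 Mb with 1876 bins, 218 gene names, a BAF of 0.056 and a mean depth of 60.5. It began 8.53 Mb before Hoxc13, after a 2-copy segment with a log2 of 0.028. In WES-15376T the segment was chr15:102149121-103943185, 1.79 Mb with 384 bins, 53 names, a BAF of 0.082 and a mean depth of 47.1. It began 772 kb before Hoxc13, next to chr15:102084707-102148282, a segment of 51 bins with a log2 of -0.39 and 1 copy. Both lines shared the right end, 906 kb beyond Hoxc4, which is the last segment of the chromosome. HoxC was thus a small stretch of a broad gain in WES-14837T, and lay in a short 2-copy segment in WES-15376T.

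**Figure D4:**
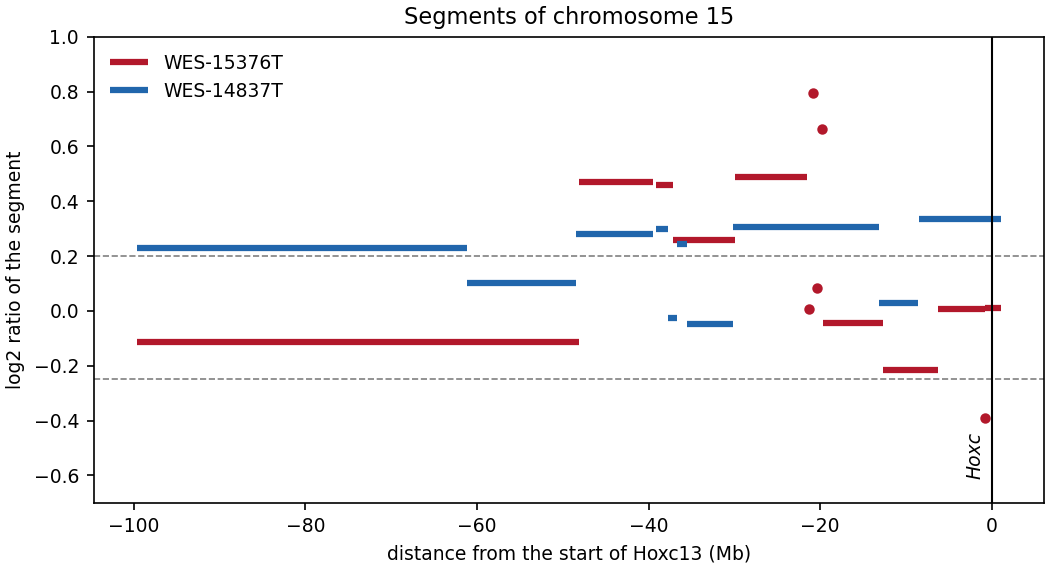
Segment log2 ratio along chromosome 15 (vertical axis) by distance in Mb from the start of Hoxc13 (horizontal axis, black line at 0), in WES-15376T (red) and WES-14837T (blue); dots mark segments shorter than 1 Mb and dashed lines the call limits of -0.25 and 0.2. At HoxC the blue line was at 0.33 and the red line at 0.0092, although both lines had gains elsewhere on the chromosome.

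Each line had 6 gained segments on chromosome 15, of 14 in WES-15376T and of 10 in WES-14837T. The gained segment nearest to HoxC in WES-15376T ended 19.6 Mb before Hoxc13 and had a log2 of 0.66. Of the 59 gained autosomal segments of WES-14837T, 33 had a higher log2 than that of HoxC and 5 had more bins, and their median log2 was 0.34. The log2 of HoxC was therefore near the middle of the gains of this line. The log2 of WES-15376T minus that of WES-14837T was -0.32 at HoxC, and 79.3% of the autosomal windows had a smaller absolute difference.

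The HoxA cluster extended over 106 kb, chr6:52155367-52260880, with Hoxa13, which patterns the digits and the hindgut, at its 5′ end. Its 11 genes include Hoxa9, a driver in acute leukemia, and all were called at 2 copies in both lines. The log2 was -0.029 in line 15376T and -0.045 in line 14837T, each within 1 SD of 0. The segment of WES-15376T was chr6:39410028-60397692, 21.0 Mb with 1702 bins, a mean depth of 45.3 and a BAF of 0.065. That of WES-14837T was chr6:3372513-130380665, 127 Mb with 9981 bins, a mean depth of 46.9 and a BAF of 0.40. No border lay closer than 8.14 Mb to the cluster in WES-15376T or 48.8 Mb in WES-14837T. WES-15376T minus WES-14837T was 0.016 at HoxA, and 8.78% of windows had a smaller absolute difference.

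The BAF differed between the lines at HoxA, and more so at HoxB, described next. In WES-14837T the 2 copies of HoxA were split by the authors into 1 of each allele, whereas in WES-15376T both were assigned to 1 allele. At HoxB both copies were assigned to 1 allele in each line, so the larger BAF difference there came with the same allele split. Of the segments with allele copies, 185 of 193 in WES-14837T and 140 of 160 in WES-15376T had 0 copies of the second allele, and the median autosomal BAF was 0.061 and 0.077. The HoxA value of 0.40 was thus far from the usual level of its line. Lines from inbred C57BL/6 mice hold few heterozygous sites, and the number of sites behind each BAF was not given, so these fractions are a description without an interval.

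The HoxB cluster extended over 174 kb, chr11:96194316-96368254, from Hoxb13, expressed in the tail bud and prostate, to Hoxb1, a hindbrain gene. Its 10 genes include Hoxb4, which acts in blood stem cells, and Hoxb7 and Hoxb9, studied in carcinomas. All 10 were called at 2 copies in both lines, with a log2 of 0.056 in line 15376T and 0.10 in line 14837T. These values lay 0.62 and 1.05 SDs of the 2-copy segments above 0. After recentering, the log2 was 0.096 in line 15376T and 0.15 in line 14837T. In WES-15376T they lay in chr11:3133019-99620437, 96.5 Mb with 11932 bins, a mean depth of 49.3 and a BAF of 1.00, far above the median of 0.077. In WES-14837T they lay in chr11:93600887-99620437, 6.02 Mb with 1492 bins, a mean depth of 50.6 and a BAF of 0.056. The segment before it in WES-14837T had a log2 of -0.20, also at 2 copies. Both lines shared the right border, 3.25 Mb beyond Hoxb1. The difference, WES-15376T minus WES-14837T, of -0.044 was smaller than 1 SD of either line, and 25.1% of windows had a smaller absolute difference.

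Counted over paralogs, the calls summed to 75 copies of Hox genes in line 15376T and 87 in line 14837T. Over all autosomal gene names, 9.14% were gained and 30.0% lost in line 15376T, against 21.5% and 28.8% in line 14837T. The group differences restate the calls of the HoxC segment and of the 20-bin HoxD segment. They are not separate measurements of each group. Paralog groups 1, 2, 3 and 7, which have no HoxC member, had the same sum in both lines. Groups 4, 5, 6, 8, 9 and 10 had 1 copy more in WES-14837T, through HoxC alone. Groups 11, 12 and 13, the posterior genes of limb and tail, had 2 copies more, through HoxC and Hoxd11 to Hoxd13 together. In group 11 (Hoxa11, Hoxc11 and Hoxd11) the sums were 5 and 7. In group 12, which has only Hoxc12 and Hoxd12, they were 3 and 5. In group 13 (Hoxa13, Hoxb13, Hoxc13 and Hoxd13) they were 7 and 9.

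The clusters also hold miRNA genes, which are conserved in position and act on Hox transcripts among others. The mature sequences are shown because the same or nearly the same miRNA is encoded in different clusters, of which only HoxC was gained. Sequences are from RefSeq on GRCm38.p6 and capitals mark the seed, bases 2 to 8.
miR-10a-5p: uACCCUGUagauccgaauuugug
miR-10b-5p: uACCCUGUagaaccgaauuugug
miR-196a-5p: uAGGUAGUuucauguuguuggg
miR-196b-5p: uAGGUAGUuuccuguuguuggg
miR-615-3p: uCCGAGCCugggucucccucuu

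The miR-10 seed was encoded in HoxB (miR-10a-5p, chr11:96317186-96317208) and HoxD (miR-10b-5p, chr2:74726074-74726096), both at 2 copies in both lines. Mir10b lay on the 2-copy side of the HoxD border in WES-15376T. The miR-196 seed was encoded at 3 places. Mir196b in HoxA (miR-196b-5p, chr6:52230129-52230150, minus strand) and Mir196a-1 in HoxB (chr11:96265187-96265208) had 2 copies in both lines. Mir196a-2 in HoxC (chr15:102973365-102973386), which encodes the same miR-196a-5p as Mir196a-1, had 2 copies in line 15376T and 3 in line 14837T. Mir615 (miR-615-3p, chr15:103014969-103014990) in HoxC was also called at 2 and 3 copies. These are gene copies, and the miRNAs themselves were not measured here.

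Of 27 listed genes within or next to the clusters, 24 had a single call in each line, Lnpk lay in 2 segments, and Hotair and Hotairm1 were not among the names. Evx2 was lost in WES-15376T with a log2 of -0.71, compared with -0.060 in WES-14837T. The genes gained in WES-14837T were Mir196a-2, Mir615, Calcoco1 (an autophagy receptor), Smug1 (a uracil-DNA glycosylase) and Cbx5 (heterochromatin protein HP1α), each with a log2 of 0.33 from the HoxC segment against 0.0092. The 5 of 24 gained in WES-14837T and the 6 of 24 with different calls stand beside shares of 21.5% and 29.3% over all autosomal names, and so were near the background. The other 18 were at 2 copies in both lines. They include Evx1, Hottip and Skap2 beside HoxA, Skap1 and Ttll6 beside HoxB, and Haglr, Mtx2 and Atf2 beside HoxD.

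Of 9 genes for TALE partners of Hox proteins, 6 had 2 copies in both lines and 2 had different calls, beside 29.3% of all autosomal names with different calls. Pbx2 and Pknox1 on chromosome 17 shared a segment and had a log2 of 0.074 at 2 copies in WES-15376T and 0.34 at 3 copies in WES-14837T. Meis3 was lost in both, with a log2 of -0.54 and -0.42. Of 12 regulators of Hox transcription, 8 had 2 copies in both lines, among them Kmt2a, the Trithorax methyltransferase, and Ezh2, the Polycomb methyltransferase. In each line 2 of the 12 were lost, beside 30.0% and 28.8% of all autosomal names, and 1 of the 12 differed in call, beside 29.3%. Gains numbered 1 in WES-15376T and 2 in WES-14837T, beside 9.14% and 21.5%. Rarg, a retinoic acid receptor, differed in call because it lies in the HoxC segments of both lines. Men1, whose product menin recruits Kmt2a, was gained in both, with a log2 of 0.33 in line 15376T and 0.52 in line 14837T. Eed, a Polycomb subunit, was lost in both, with a log2 of -0.53 and -0.45. Rarb, a further retinoic acid receptor, was lost in both, with a log2 of -0.64 and -0.58.

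Of the 6 ParaHox genes, the evolutionary relatives of the Hox clusters, 5 are autosomal. Of these 3 had different calls in the lines, beside 29.3% of all autosomal names, and the 3 share a segment and so are a single measurement. Gsx1, Pdx1 and Cdx2 form a cluster on chromosome 5 and shared a log2 of 0.094 at 2 copies in WES-15376T and 0.32 at 3 copies in WES-14837T. Pdx1 is the homeobox gene required for pancreas formation, and Cdx2 is the intestinal regulator of posterior Hox genes. Cdx4 on the X chromosome, which the autosomal shares do not cover, had a log2 of -0.56 at 1 copy in WES-15376T and -0.088 at 2 copies in WES-14837T. The paper gives no sex for the mice of these lines, so a loss of Cdx4 cannot be told apart from the single X of a male. Cdx1 was lost in both, with a log2 of -0.56 and -0.44, and Gsx2 had 2 copies in both. The ParaHox cluster of chromosome 5 thus had the same pair of calls as HoxC, in separate segments on another chromosome. Pbx2 and Pknox1 on chromosome 17 had this pair of calls too, and 21.5% of all autosomal names were gained in WES-14837T. The match is therefore not particular to Hox and ParaHox genes.

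The precision of these values is limited by the bins, since neither the spread between bins nor read counts were part of the tables. The gain of HoxC rested on 1876 bins and the loss at Hoxd13 to Hoxd11 on 20 bins. The sources name different capture kits, both designed for human exons, NimbleGen SeqCap EZ in the methods and Agilent SureSelect in the labels. Which kit was used is unknown, as is its yield on mouse Hox exons.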

How the data were processed

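Genomic DNA of each line was captured, sequenced on an Illumina NovaSeq and, per the labels, set on mm10. The aligner, the copy-number software and the reference are not given in the sources used here. For each library the authors deposited segment and gene tables. The log2 values deposited are log2 ratios of coverage, the BAF deposited is a fraction from 0 to 1, the depth deposited is a coverage signal without normalization, and the weight deposited is a score that was not used. Copy numbers were called by the authors.

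Starts were rewritten to count from 1. Hox genes were taken by name, set beside RefSeq positions on GRCm38.p6, and given the values of their segment. Backgrounds are shares of autosomal gene names with a single call (21097 names in WES-15376T, 21090 in WES-14837T and 21054 in both). Windows of 1 Mb needed segments over at least 50% of their length in each line. Own depths came from the gene tables. Python 3.11.15, numpy 2.4.6, pandas 2.3.3 and matplotlib 3.10.9 were used. The calls of names and segments, the autosomal median, the 2-copy depth and the windows were tested on simulated segments. The other steps had no such test. All Hox genes were counted, though some items are not reported here by name. Genes of the other lists were counted by call, and named where the call differed between the lines or as examples. The Hox genes and the gene lists were chosen with earlier results of these data known. Alternatives were an absolute log2 of 0.3 or 0.5 for calls, log2 recentered on the autosomal median, depth in place of log2, genes with at least 3 bins, and neighbors within 2 Mb. RNA-seq samples and tail DNA were not analysed here.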

Additional observations from a re-analysis of the deposited data

How the results depend on the processing

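The 3 lost Hox genes of WES-15376T remained lost at an absolute log2 of 0.3, at 0.5 and after recentering. The 9 gained HoxC genes of WES-14837T were gained at 0.3 and after recentering, but 0 were gained at an absolute log2 of 0.5. With own read depth in place of log2, Hoxd10 to Hoxd1 in WES-15376T moved from -0.087 to 0.26, and their difference between the lines from -0.028 to 0.24, while the difference at Hoxd13 to Hoxd11 moved from -0.65 to -0.78. The log2 of HoxC in WES-14837T was 0.35 by depth and 0.38 after recentering. Against neighbors within 2 Mb in place of 5 Mb, the own depth of the lost Hox genes went from -0.48 to 0.014, with no 2-copy gene among either set of neighbors. The cause of these shifts was not tested. Genes with at least 3 bins gave no value, since each listed Hox gene had 2. No paired analysis was possible because the comparison was of 1 library with 1 library, without a test.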
